A study of Mus musculus with 9 samples.

Results

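The data described here are the mRNA levels of 10 α- and β-tubulin isotype genes in mouse liver. The members are every row of the deposited gene table whose symbol is Tuba1a, Tuba1b, Tuba1c, Tuba4a, Tuba8, Tubb2a, Tubb2b, Tubb4b, Tubb5 or Tubb6, 10 of 16755 genes in all. The members were chosen by their group means in this table, with the ratios between groups in view, so all values below are descriptions of the members and carry no test. RNA was sequenced from liver of 9 male C57BL/6 mice in groups of 3. Untreated Scd2f/f mice carry a floxed stearoyl-CoA desaturase gene, Scd2, and had received neither carcinogen nor special diet. The Scd2f/f DEN + WAD mice carry the same floxed gene, were injected with diethylnitrosamine (DEN), a carcinogen of the liver, at 10 mg/kg when 2 weeks old, and drank the liquid Western alcohol diet (WAD) from 6 weeks of age. The Scd2f/f;CC DEN + WAD mice had the same regimen and in addition a Cre recombinase under the Col1a1 promoter (Col1a1-Cre), so that Scd2 is removed in cells that express collagen I, which are mainly activated hepatic stellate cells and portal fibroblasts, and not in hepatocytes. The labels give 4 months of WAD and the study's methods give a longer period. The study describes the tissue of both treated groups as tumor-adjacent liver (TAL), which can hold microscopic tumors.

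Microtubules are hollow tubes built from dimers of 1 α- and 1 β-tubulin, and each of these is encoded by a family of genes, the isotypes. The isotype proteins are alike along most of their length and differ mainly in a short acidic carboxy-terminal tail, to which motors and modifying enzymes bind. In liver, microtubules carry secretory vesicles, bile transporters and mitochondria in hepatocytes, form the cilium of bile duct cells, and build the spindle of dividing cells. Cells adjust tubulin mRNA to the amount of free tubulin dimer by degrading tubulin mRNA while it is being translated.

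The deposited values are least-squares group means of normalized read counts. No value of a single mouse was analysed, so the spread between mice is unknown, no difference below could be set against it, and depth is unknown too. The 75th percentile of the means was 15.5 in both Scd2f/f groups and 15.4 in Scd2f/f;CC, and the median log2 ratio over the 11784 genes averaging 1 or more over the 3 groups lay between 0.01 and 0.04 in the 3 comparisons. The targeted gene Scd2 had a mean of 2.46 in untreated liver, 6.47 in Scd2f/f DEN + WAD and 1.87 in Scd2f/f;CC DEN + WAD. The tissue label was checked against hepatocyte markers. All 6 were present, with a summed mean of 33900 in untreated liver, 31900 in TAL of Scd2f/f mice and 36000 in TAL of Scd2f/f;CC mice. Most of that sum was Alb, albumin, with 21300, 20900 and 22700 in the same order. In Scd2f/f TAL, 4 of the 6 were lower than in untreated liver, beside 45.8% of all genes, and 2 higher. The lowest ratio was that of Apoa1, at 0.611. Of the 10 tubulin genes, 9 averaged 1 or more over the 3 groups, and Tubb2b, at 0.154, did not.

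The promoters of 3 members are shown, chosen by their ratios and means. They do not cover every pattern described below, such as that of Tubb6. Tubb2a had the highest ratio to untreated liver among members averaging 1 or more, Tuba1a the lowest ratio of Scd2f/f;CC to Scd2f/f TAL among these, and Tubb4b, the member with the highest means, differed little between groups. Each window is from RefSeq on GRCm38.p6 and runs from 250 bases before to 50 bases after the annotated start, on the minus strand, at chr13:34077959-34078258 for Tubb2a, chr15:98953452-98953751 for Tuba1a and chr2:25224653-25224952 for Tubb4b. Capitals mark matches to a motif on either strand. The promoter elements searched were the CCAAT box, the core letters GGGCGG of the sites where Sp1 family proteins bind, and the element TATAAA that the basal machinery reads. The factor cores searched were TTTGAA, which proteins of the TCF family recognise, and the letters GGAATG, which proteins of the TEAD family recognise. No match overlaps another in these windows.
Tubb2a: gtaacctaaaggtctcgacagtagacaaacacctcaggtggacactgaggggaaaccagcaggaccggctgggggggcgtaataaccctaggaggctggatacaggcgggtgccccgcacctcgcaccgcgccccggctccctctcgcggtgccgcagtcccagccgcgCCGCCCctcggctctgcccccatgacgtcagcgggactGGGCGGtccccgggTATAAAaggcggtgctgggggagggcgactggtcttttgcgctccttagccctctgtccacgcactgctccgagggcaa
Tuba1a: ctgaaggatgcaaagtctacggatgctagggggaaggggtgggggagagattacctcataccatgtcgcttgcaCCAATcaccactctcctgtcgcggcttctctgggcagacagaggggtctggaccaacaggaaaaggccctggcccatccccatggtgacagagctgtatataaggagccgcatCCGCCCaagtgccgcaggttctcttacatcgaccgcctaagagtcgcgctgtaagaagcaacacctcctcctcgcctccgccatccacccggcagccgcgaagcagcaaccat
Tubb4b: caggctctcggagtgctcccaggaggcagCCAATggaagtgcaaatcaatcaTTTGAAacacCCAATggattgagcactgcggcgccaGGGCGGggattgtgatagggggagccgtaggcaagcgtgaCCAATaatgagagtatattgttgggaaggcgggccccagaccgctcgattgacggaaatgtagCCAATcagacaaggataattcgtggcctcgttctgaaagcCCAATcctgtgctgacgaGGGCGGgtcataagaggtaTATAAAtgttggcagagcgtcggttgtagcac
The window of Tubb2a held TATAAA beginning 29 bases before the start, and GGGCGG or its reverse complement beginning 43 and 81 bases before it. The window of Tubb4b held 5 matches to CCAAT, the one farthest upstream beginning 221 bases before the start, while that of Tuba1a held 1, beginning 176 bases before it, and that of Tubb2a none. Over the 8 members with a RefSeq window, CCAAT was found in 4, GGGCGG in 6, TATAAA in 2, TTTGAA in 1 and GGAATG in 1. The TATAAA of Tubb4b began at base 269 of its window, after the annotated start. Of 13995 windows of genes in the table, 37.6% held CCAAT, 58.1% GGGCGG, 8.23% TATAAA, 12.9% TTTGAA and 12.7% GGAATG, searched the same way. These matches are letters in a window, and binding was not measured.

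Because isotype genes are so alike, part of their reads cannot be assigned to 1 gene by sequence. Between the coding sequences of Tuba1a, Tuba1b and Tuba1c, identity was 97.6% to 98.4% of aligned bases, and 22 bases differed between Tuba1b and Tuba1c. Tubb2a and Tubb2b shared 96.5% of coding bases, a difference of 47 bases. The other pairs within a family shared 79.1% to 85.6%, and pairs of 1 α and 1 β isotype 53.7% to 57.9%. Of all 75-base windows of the longest GENCODE M21 transcript, 78.3% of those of Tuba1b, 70.4% of Tuba1a and 56.7% of Tuba1c were also found in a transcript of another gene, on either strand. The same share was 43.2% for Tubb2a, 32.2% for Tubb2b and 40.9% for Tubb4b, the last mostly through its pseudogene Tubb4b-ps1. No such window of Tubb5 or Tubb6 was found in another gene. For Tuba4a, 47.2% of the windows were also in Stk16, a kinase gene on the opposite strand whose end overlaps Tuba4a, and 13.5% of those of Tuba8 were in the antisense gene Gm15856. The authors' E/M method splits shared reads between genes by estimation, whether strand was used in counting is not given in the sources used here, and values of genes with a large shared portion are therefore uncertain between them.

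**Figure D1:**
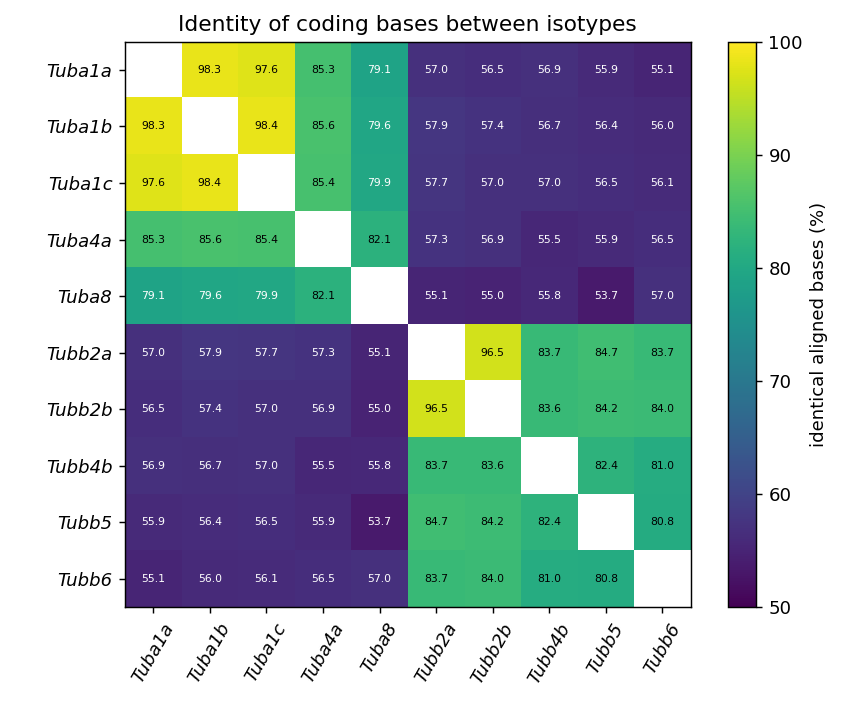
Identity of coding bases (color and number, in percent of aligned bases) for each pair of the 10 tubulin isotype genes, from the longest GENCODE M21 transcript of each. Tuba1a, Tuba1b and Tuba1c form a block of 97.6% to 98.4%, Tubb2a and Tubb2b a pair at 96.5%, and α and β isotypes share under 58%.

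The first comparison asked how the DEN + WAD regimen moved the isotypes, in Scd2f/f TAL against untreated Scd2f/f liver. Of the 10 members, 3 were at least 2-fold higher in TAL and 1 at least 2-fold lower. The means of 3 members, Tuba1c, Tuba4a and Tubb6, were lower in TAL, beside 45.8% of all genes. Over all genes of the table, 9.37% were at least 2-fold higher and 4.69% at least 2-fold lower, and since the members were picked with these means known, nothing is read from their counts. The median log2 ratio of the members was 0.22, beside 0.04 over all genes. The members thus ranged from Tubb2b at 2.34 to Tubb6 at -1.02 on the log2 scale.

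Among the β isotypes, Tubb2a stood out by level and ratio together. Tubb2a encodes a major β-tubulin that is abundant in brain and found in many other tissues. Its group mean was 13.6 in untreated liver, 40.3 in TAL of Scd2f/f mice and 22.2 in TAL of Scd2f/f;CC mice. The mean was thus 2.96-fold higher in Scd2f/f TAL than in untreated liver, and the log2 ratio of 1.57 was higher than that of 97.1% of the genes averaging 1 or more. With Scd2 removed the mean was 0.551 of that in Scd2f/f TAL and still 1.63-fold that of untreated liver.

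Tubb2b lies 48.7 kb from Tubb2a on chromosome 13, on the same strand. It encodes a β-tubulin best known from the developing brain. Its means were 0.0656 in untreated liver, 0.333 in TAL of Scd2f/f mice and 0.0625 in TAL of Scd2f/f;CC mice. Both lower values are close to the lowest mean of any gene, which was 0.04 in untreated liver and 0.0349 in Scd2f/f;CC TAL. The ratio of Scd2f/f TAL to untreated liver was 5.08, and with 1 added to each mean the log2 ratio was 0.32 in place of 2.34. In addition, 29.3% of the 75-base windows of Tubb2b are also in Tubb2a, whose means were far higher in all groups. How far shared reads contributed to the Tubb2b values was not tested.

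Tubb6 had the opposite direction. It encodes a divergent β isotype with broad but low expression. Its mean was 9.04 in untreated liver, 4.46 in TAL of Scd2f/f mice and 2.69 in TAL of Scd2f/f;CC mice. The ratio of Scd2f/f TAL to untreated liver was 0.493, and the log2 ratio of -1.02 was higher than that of only 2.77% of the genes averaging 1 or more. The gene shares no 75-base window with another gene.

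Tubb4b and Tubb5, broadly expressed β isotypes, had means that moved little with the regimen. Tubb4b had means of 62.9 in untreated liver, 65.2 in TAL of Scd2f/f mice and 55.3 in TAL of Scd2f/f;CC mice. Tubb5 had means of 32.7, 36.0 and 29.1 in the same order. Their ratios of Scd2f/f TAL to untreated liver were 1.04 and 1.10.

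Among the α isotypes, Tuba8 had the highest ratio. Tuba8 encodes a divergent α-tubulin that lacks the carboxy-terminal tyrosine of most others. Its mean was 1.01 in untreated liver, 2.39 in TAL of Scd2f/f mice and 1.69 in TAL of Scd2f/f;CC mice, with a 2.37-fold higher mean in Scd2f/f TAL than in untreated liver. The level was low in all groups, and with 1 added to each mean the log2 ratio was 0.75 in place of 1.24.

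The 3 genes of the Tuba1 cluster lie within 107.0 kb on chromosome 15, Tuba1a and Tuba1b on the minus strand and Tuba1c on the plus strand, and did not move as a block. Tuba1a, a main α-tubulin of neurons that is also expressed in other cells, had means of 4.23 in untreated liver, 5.83 in TAL of Scd2f/f mice and 3.0 in TAL of Scd2f/f;CC mice. Tuba1b, a ubiquitous α-tubulin, had means of 23.7, 29.1 and 21.8 in that order. Tuba1c, with the highest mean of the cluster, had means of 47.5, 34.0 and 31.1. The log2 ratios of Scd2f/f TAL to untreated liver were thus 0.46 for Tuba1a and 0.30 for Tuba1b, against -0.48 for Tuba1c. These 3 genes share the largest portion of windows, so how reads were split among them bears on these values.

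Tuba4a, which encodes an α-tubulin without a genetically coded carboxy-terminal tyrosine, had means of 41.7 in untreated liver, 35.4 in TAL of Scd2f/f mice and 39.2 in TAL of Scd2f/f;CC mice. Its ratio of Scd2f/f TAL to untreated liver was 0.849. The overlapping gene Stk16 had means of 28.1, 22.0 and 23.7 in the same order, a ratio of 0.783.

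**Figure D2:**
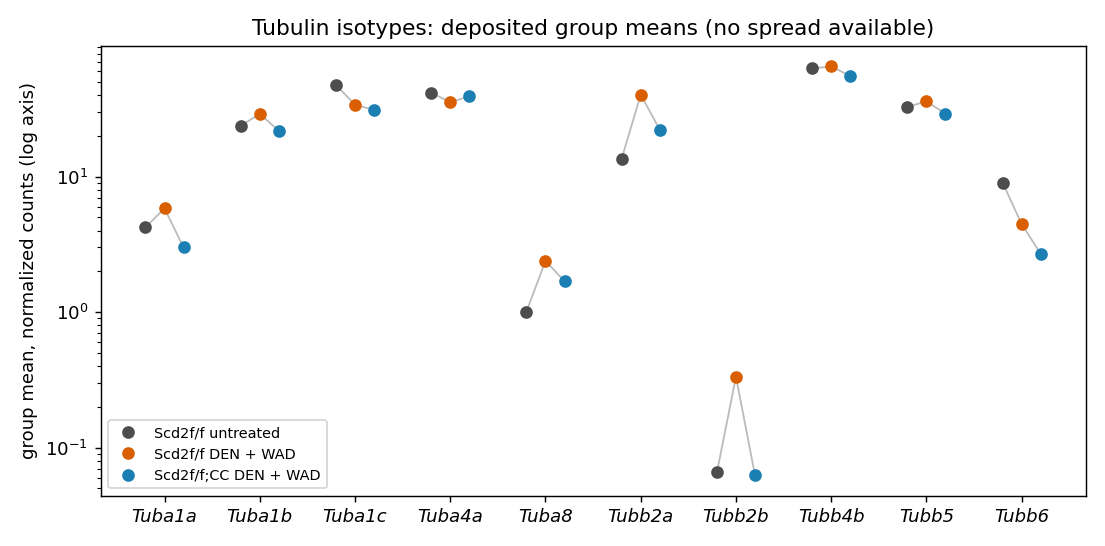
Group means of normalized read counts (log axis) of the 10 tubulin isotype genes in untreated Scd2f/f liver (grey), Scd2f/f DEN + WAD TAL (orange) and Scd2f/f;CC DEN + WAD TAL (blue). Each point is the deposited mean of 3 mice and has no error bar, because values of single mice were not analysed; Tubb2a goes from 13.6 to 40.3 and 22.2, while Tubb6 goes from 9.04 to 4.46 and 2.69.

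The second comparison asked what the removal of Scd2 from Col1a1-expressing cells did under the same regimen, in Scd2f/f;CC against Scd2f/f TAL. It shares the Scd2f/f TAL means with the first comparison. The means of 9 of the 10 members were lower in Scd2f/f;CC TAL, beside 49.6% of all genes. The member that was not lower was Tuba4a, with a ratio of 1.11. At least 2-fold lower was 1 member, Tubb2b, beside 4.07% of all genes, and among the 9 members averaging 1 or more there was none, beside 1.54% of such genes. None was at least 2-fold higher, beside 1.82%. At a limit of 1.5-fold, Tubb2b, Tuba1a, Tubb2a and Tubb6 were lower, 4 members beside 9.82% of all genes. The members' median log2 ratio was -0.46, beside 0.00 over all genes. Again the members were chosen with these ratios in view.

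The ratio of Scd2f/f;CC to Scd2f/f TAL was 0.515 for Tuba1a, 0.551 for Tubb2a and 0.603 for Tubb6. In log2 these were -0.96, -0.86 and -0.73, and between 1.71% and 3.27% of the genes averaging 1 or more had a lower ratio. Tuba8 followed with a log2 ratio of -0.50 and Tuba1b with -0.42. The log2 ratios of Tubb5, Tubb4b and Tuba1c were -0.31, -0.24 and -0.13. For Tubb2b the log2 ratio was -2.41, and with 1 added to each mean it was -0.33. The median over the 5 β isotypes was -0.73 and that over the 5 α isotypes -0.42.

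The third comparison, of Scd2f/f;CC TAL with untreated liver, does not use the Scd2f/f TAL means. Here 1 member, Tubb6, was at least 2-fold lower, with a ratio of 0.298, beside 4.64% of all genes, and none was at least 2-fold higher, beside 6.41%. The log2 ratio of Tubb6 was -1.75, and 0.823% of the genes averaging 1 or more had a lower one. At a limit of 1.5-fold, 2 members were higher, beside 14.9% of all genes, and 2 lower, beside 10.9%. Tubb2a and Tuba8 were above untreated liver, at log2 ratios of 0.71 and 0.74. Tuba1a and Tuba1c lay below it, at -0.50 and -0.61. The other 5 members were within 0.19 of 0 on the log2 scale in this comparison, Tubb4b being the farthest at -0.19. The members' median log2 ratio was -0.14, beside 0.05 over all genes.

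**Figure D3:**
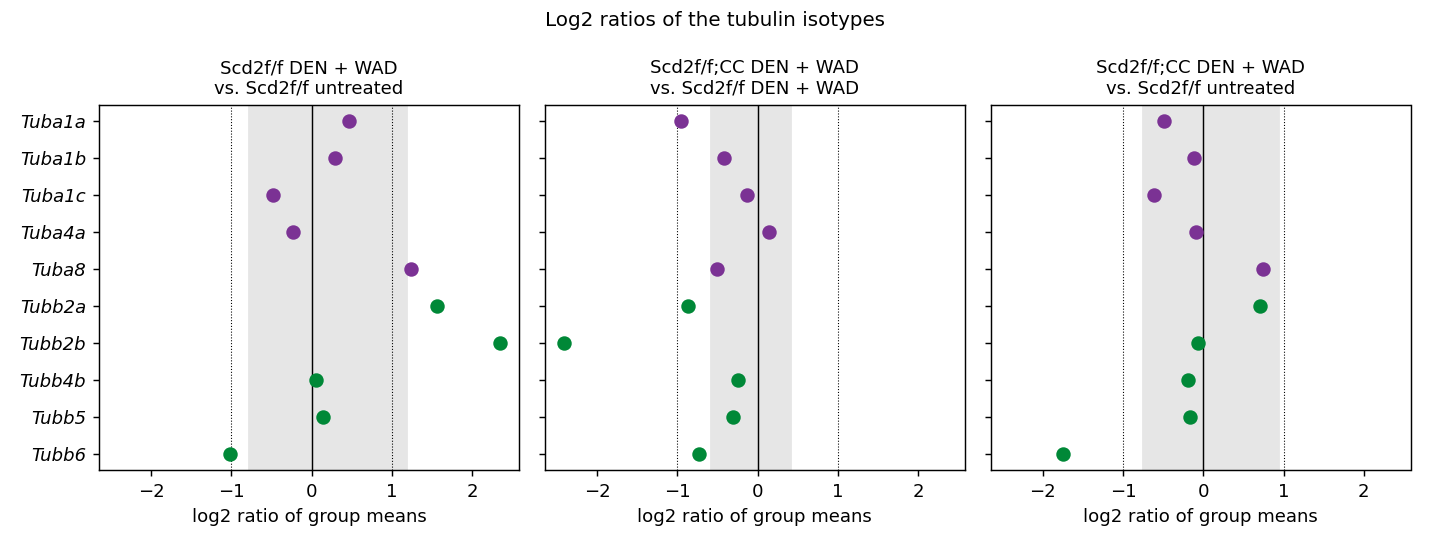
Log2 ratios of group means for the 10 tubulin isotypes in each of 3 comparisons (α isotypes purple, β isotypes green). The grey band spans the 5th to the 95th percentile of the 11784 genes averaging 1 or more, and dotted lines mark 2-fold; Tubb2a lies above the band in the first panel and below it in the second, and Tubb6 lies below it in all 3.

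Levels can be set beside each other between isotypes only per length, so each mean was divided by the length of the longest transcript. Tubb4b had the highest mean per kb in every group, with 39.4 in untreated liver, 40.8 in TAL of Scd2f/f mice and 34.6 in TAL of Scd2f/f;CC mice. Within the β family it made up 60.3% of the summed means per kb in untreated liver, 49.7% in TAL of Scd2f/f mice and 56.8% in TAL of Scd2f/f;CC mice. Tubb2a made up 12.9%, 30.5% and 22.6% in the same order. In untreated liver Tubb5 was above Tubb2a, at 12.3 against 8.45 per kb, and in Scd2f/f TAL Tubb2a was above Tubb5, at 25.0 against 13.6. With the median transcript length, Tubb5 was above Tubb2a in Scd2f/f TAL too, with 33.4% of the β sum against 20.2%. That median length of Tubb5, 870.5 bases, is shorter than the 1332 coding bases of its longest transcript. The share of Tubb6 was 7.87%, 3.09% and 2.51%. Tubb2b held at most 0.186%. The β sum per kb was 65.3 in untreated liver, 82.1 in TAL of Scd2f/f mice and 60.9 in TAL of Scd2f/f;CC mice, so that the sum was highest in the group with the highest Tubb2a.

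In the α family Tuba1c had the highest mean per kb in each group, with 24.0 in untreated liver, 17.2 in TAL of Scd2f/f mice and 15.7 in TAL of Scd2f/f;CC mice. Its share was 43.5%, 33.9% and 35.3%. Tuba1b held 24.7%, 33.0% and 28.2% of the α sum in the same order, and in Scd2f/f TAL its 16.7 per kb was close to Tuba1c. Tuba4a held 26.7%, 24.6% and 31.1%. Tuba1a held 4.26%, 6.39% and 3.75%, and Tuba8 0.811%, 2.09% and 1.68%. The α sum per kb was 55.0, 50.6 and 44.4. With the median transcript length in place of the longest, Tuba4a had the largest α share in each group, at 46.4%, 43.9% and 51.7%. The order of Tuba1c and Tuba4a thus depends on the length used as divisor. The median length of Tuba4a, 830 bases, is shorter than the 1344 coding bases of its longest transcript. Without values of single mice, it cannot be said which neighbours in these orders differ beyond their spread.

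**Figure D4:**
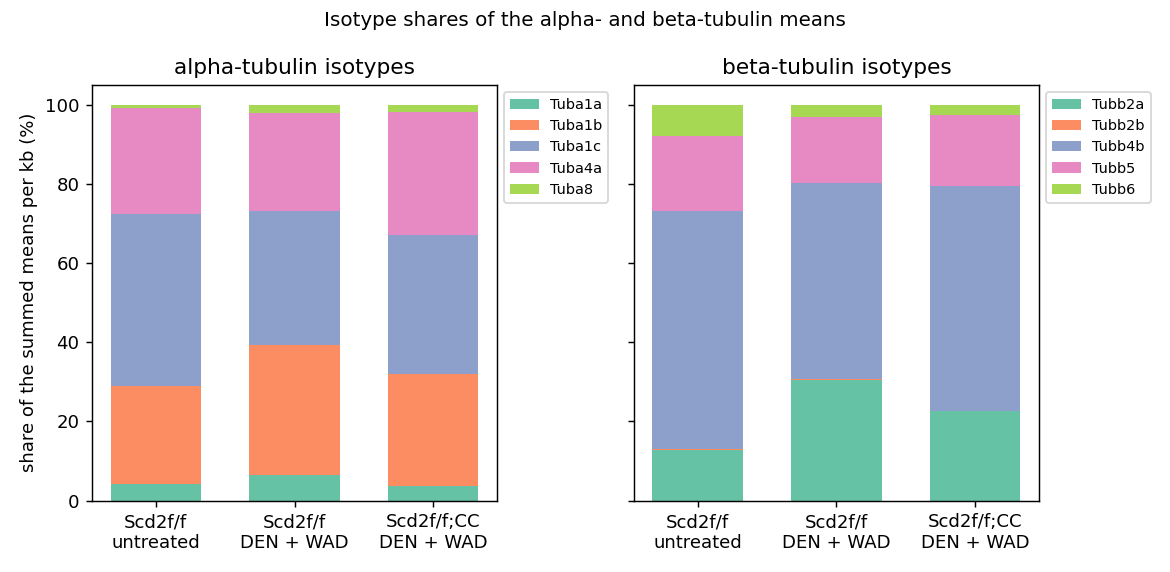
Shares (%) of each isotype in the summed group means per kb of the longest transcript, for the 5 α-tubulin (left) and 5 β-tubulin genes (right) in the 3 groups. Tubb2a takes 12.9% of the β sum in untreated liver, 30.5% in TAL of Scd2f/f mice and 22.6% in TAL of Scd2f/f;CC mice, with Tubb4b the largest share throughout.

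The annotation gives further positions as follows. In coordinates of the deposited table, which overlapped the gene of the same name on GRCm38 for all 10 members, Tubb2a spans chr13:34074274-34078008 and Tubb2b chr13:34126748-34130467, both on the minus strand. Tuba1b spans chr15:98931425-98934566, Tuba1a chr15:98949841-98953552 and Tuba1c chr15:99029891-99038106. Tuba4a is at chr1:75214228-75219866, Tuba8 at chr6:121210696-121226855, Tubb4b at chr2:25222160-25224703, Tubb5 at chr17:35833921-35838307 and Tubb6 at chr18:67390717-67402749. The longest transcript has 5 exons in Tuba8 and 4 in each other member, all of them coding. The genes next to the Tubb2 pair did not share its ratios. Bphl, directly beside Tubb2a, had a log2 ratio of 0.11 between Scd2f/f TAL and untreated liver and 0.18 between Scd2f/f;CC and Scd2f/f TAL, and Psmg4, beyond Tubb2b, had 0.15 and -0.02. Next to the Tuba1 cluster, Lmbr1l had 0.01 and -0.01, and Troap, beyond Tuba1c, had 2.01 and -0.05, with means of 0.04 in untreated liver, 0.161 in TAL of Scd2f/f mice and 0.156 in TAL of Scd2f/f;CC mice.

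The other tubulin genes of the table were Tubg1, Tubd1, Tube1 and the pseudogene Tubb4b-ps1. Tubg1, which encodes the γ-tubulin that nucleates microtubules, had means of 8.34 in untreated liver and 10.3 in both TAL groups. Tubd1 had means of 1.80, 1.52 and 1.68, and Tube1 of 0.504, 0.625 and 0.721; both encode tubulins of centrioles. Tubb4b-ps1 had means of 0.51, 0.477 and 0.296. None of the 4 was 2-fold different in any comparison. Over all genes, 1.82% to 9.37% were at least 2-fold higher and 4.07% to 4.69% at least 2-fold lower, depending on the comparison. The median log2 ratio of the 4 was 0.10 with the regimen and 0.07 for Scd2f/f;CC against Scd2f/f TAL. Of 16 protein-coding α- and β-tubulin genes of GENCODE M21, the other 6 were not analysed here.

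The chaperones that fold tubulin were examined as the next step of the pathway. All 22 genes of this list, which covers the CCT ring, prefoldin and the tubulin cofactors, averaged 1 or more. None was 2-fold different in any comparison. Of all genes, 1.82% to 9.37% were at least 2-fold higher and 4.07% to 4.69% at least 2-fold lower, depending on the comparison. The median log2 ratio of the 22 genes was -0.24 between Scd2f/f TAL and untreated liver, with 17 of 22 lower, beside 45.8% of all genes. It was -0.05 between Scd2f/f;CC and Scd2f/f TAL. The lowest ratio with the regimen was that of Tbca, a cofactor that binds β-tubulin, at -0.51 on the log2 scale, and the highest was that of Arl2, a small GTPase of the cofactor complex, at 0.42. For Scd2f/f;CC against Scd2f/f TAL, the list ran from -0.27 for Tbca to 0.23 for Tbcc.

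Of 21 enzymes that modify tubulin, 15 were in the table. Depending on the comparison, 1.82% to 9.37% of all genes were at least 2-fold higher and 4.07% to 4.69% at least 2-fold lower. Of the 15 enzymes, 1 was at least 2-fold different in any of the comparisons. This was Vash1, which removes the terminal tyrosine of α-tubulin, with means of 0.419 in untreated liver, 0.986 in TAL of Scd2f/f mice and 0.819 in TAL of Scd2f/f;CC mice, named after its values were seen. Among those averaging 1 or more, Atat1, the α-tubulin acetyltransferase, had the highest log2 ratio with the regimen, 0.85, and Agbl3, a carboxypeptidase that trims tubulin tails, the lowest, -0.73. Between Scd2f/f;CC and Scd2f/f TAL, the range was from -0.44 for Svbp, the partner of the vasohibins, to 0.36 for Agbl3. The median log2 ratio was 0.16 with the regimen and 0.02 with Scd2 removal.

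Of 13 nucleation genes, 12 were in the table and none was 2-fold different in any comparison. Among all genes, 1.82% to 9.37% were at least 2-fold higher and 4.07% to 4.69% at least 2-fold lower, depending on the comparison. The median log2 ratio of the list was 0.10 with the regimen and 0.01 for Scd2f/f;CC against Scd2f/f TAL. Cdk5rap2, a centrosome protein that anchors γ-tubulin rings, was the highest with the regimen at 0.61, and Tubgcp3, a ring subunit, the lowest at -0.13. For Scd2f/f;CC against Scd2f/f TAL, the list ran from -0.13 for Tubgcp4 to 0.26 for Mzt2.

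Of 24 microtubule-associated and end-binding proteins, 23 were in the table, and 4 were at least 2-fold higher in Scd2f/f TAL than in untreated liver, none at least 2-fold lower, beside 9.37% and 4.69% of all genes. Among these 4 were Prc1 and Tpx2, proteins of the mitotic spindle, whose means over the 3 groups were 0.999 and 0.629. The median log2 ratio of all 23 genes was 0.35. Clip2, a plus-end tracking protein, had the highest log2 ratio among those averaging 1 or more, 1.38, and Dst, a large linker of filaments, the lowest, -0.36. Between Scd2f/f;CC and Scd2f/f TAL, 22 of 23 had a lower mean, with a median log2 ratio of -0.29, and 2 were at least 2-fold lower, beside 49.6% and 4.07% of all genes. The lowest averaging 1 or more was Clip2, at -0.79, and the highest Map1s at 0.03. Only 16 of the 23 averaged 1 or more, and the 2 that were at least 2-fold lower, Map1a and Prc1, did not.

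Of 13 depolymerizing and severing proteins, 10 were in the table. With the regimen, 3 were at least 2-fold higher and none at least 2-fold lower, beside 9.37% and 4.69% of all genes, with a median log2 ratio of 0.46. Of these 3, Kif2c and Fignl1 had means over the 3 groups of 0.265 and 0.263. Stmn1, which sequesters tubulin dimers and is abundant in dividing cells, had means of 1.56 in untreated liver, 4.89 in TAL of Scd2f/f mice and 3.04 in TAL of Scd2f/f;CC mice. Its log2 ratios were 1.65 with the regimen and -0.69 for Scd2f/f;CC against Scd2f/f TAL, the highest and the lowest of the list in these comparisons among genes averaging 1 or more. The median for Scd2f/f;CC against Scd2f/f TAL was -0.09. None was 2-fold different there, beside 1.82% of all genes at least 2-fold higher and 4.07% at least 2-fold lower.

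The other filament systems were set beside the tubulins. Vim, the mesenchymal intermediate filament vimentin, had means of 9.94 in untreated liver, 20.1 in TAL of Scd2f/f mice and 9.83 in TAL of Scd2f/f;CC mice. Of 8 actin and intermediate filament genes, Vim alone was at least 2-fold higher with the regimen, beside 9.37% of all genes. In the other direction, 1 was at least 2-fold lower, beside 4.69%, and the median log2 ratio of the list was -0.23. Krt18, a keratin of hepatocytes and bile duct cells, had means of 216, 90.5 and 72.4, a log2 ratio of -1.26 with the regimen. Actb, cytoplasmic β-actin, had means of 494, 676 and 634. All 8 genes were lower in Scd2f/f;CC than in Scd2f/f TAL, 2 of them at least 2-fold, beside 49.6% and 4.07% of all genes, with a median log2 ratio of -0.35.

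**Figure D5:**
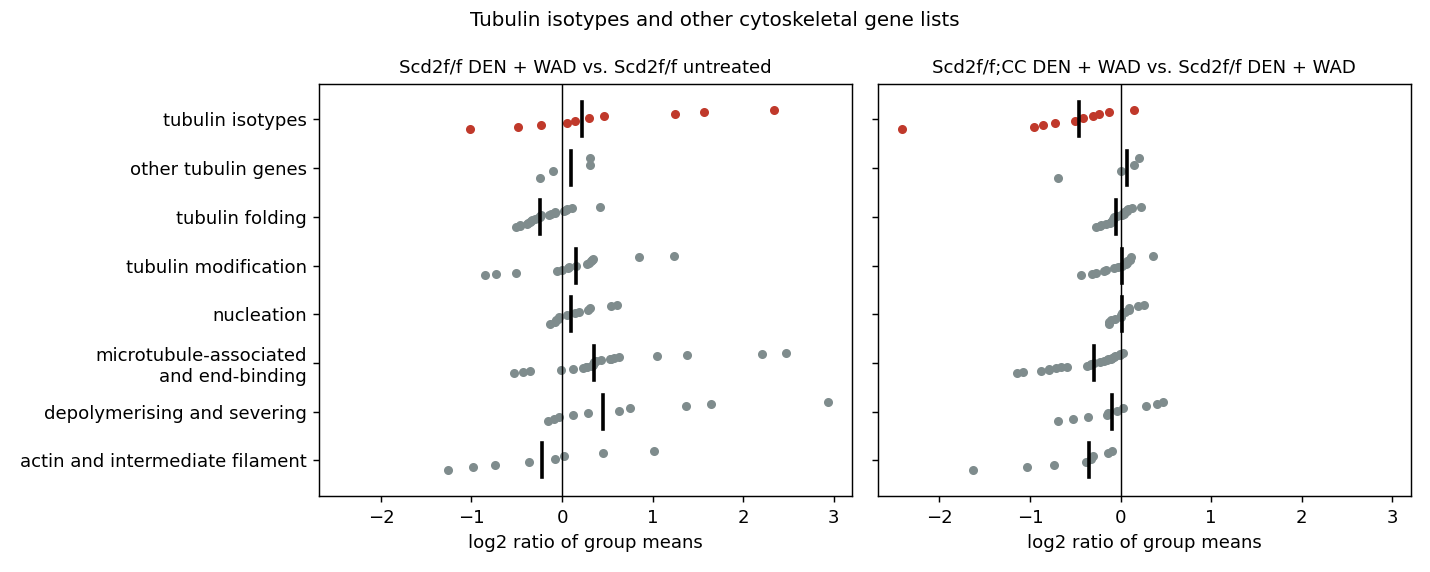
Log2 ratios of group means for the 10 tubulin isotypes (red) and the genes of 7 other lists (grey), with the regimen (left) and for Scd2f/f;CC against Scd2f/f TAL (right). Each point is a gene and each black bar the median of its list; the isotype medians are 0.22 and -0.46, and those of tubulin folding genes -0.24 and -0.05.

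Liver tissue was sequenced whole, so fewer cells of a type and less RNA per cell cannot be told apart. Summed markers of several cell types also differed between the groups. For the counts below, 9.37% of all genes were at least 2-fold higher in Scd2f/f TAL than in untreated liver. The share at least 2-fold lower in Scd2f/f;CC than in Scd2f/f TAL was 4.07%. All 8 macrophage markers were at least 2-fold higher in Scd2f/f TAL than in untreated liver. Their summed mean was 77.5 in untreated liver, 279 in TAL of Scd2f/f mice and 215 in TAL of Scd2f/f;CC mice. The summed mean of 10 markers of stellate cells and fibroblasts was 135, 262 and 128 in the same order, with 3 at least 2-fold higher in the first comparison and 6 at least 2-fold lower in the second. That of 8 genes of dividing cells was 4.25, 18.1 and 10.5, with 7 at least 2-fold higher with the regimen and 1 at least 2-fold lower in Scd2f/f;CC. The 6 bile duct markers had 59.0, 53.9 and 19.2, and 5 of them were at least 2-fold lower in Scd2f/f;CC than in Scd2f/f TAL. Most of that sum was Spp1, osteopontin, with 52.3, 45.1 and 14.8. For 5 markers of T and NK cells the sums were 1.31, 4.86 and 2.65, for 3 of neutrophils 1.04, 4.27 and 3.46, and for 4 of B cells 0.877, 1.71 and 1.87. Endothelial markers had 105, 142 and 143. Platelet markers, of which 3 were in the table, had 1.69, 1.63 and 1.62. No gene had a mean of 0 in any group, so no marker could be at 0. Tubb2a was highest in Scd2f/f TAL, as were the stellate cell, macrophage, T and NK cell, neutrophil and dividing cell sums. In the stellate cell list, 8 of 10 genes were higher in Scd2f/f TAL than in untreated liver, and Acta2 and Des were lower. Tubb6 was highest in untreated liver and lowest in Scd2f/f;CC TAL, as were the bile duct and platelet sums. In the bile duct list, 3 of 6 genes were lower in Scd2f/f TAL than in untreated liver, beside 45.8% of all genes, and 3 higher. The part of these cells in the tubulin values was not tested.

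The genes most like the members were sought among 5580 other genes averaging 10 or more, by the distance between their pair of log2 ratios, with the regimen and for Scd2f/f;CC against Scd2f/f TAL, and the members' median pair of 0.22 and -0.46. Over these 3 group means, the nearest were Slc6a9, a glycine transporter, at a distance of 0.06, Bhlhe40, a transcriptional repressor, at 0.07, Fkbp2, an endoplasmic reticulum protein, at 0.07, and Asah1, acid ceramidase, at 0.07. The fifth was a gene at chr5:93093437-93176448 at 0.08, whose symbol a spreadsheet had turned into a date. Few members lie near that median pair themselves, Tuba1b with 0.30 and -0.42 being close to it.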

How the data were processed

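Polyadenylated RNA from liver of 3 mice per group was made into libraries with the Illumina TruSeq RNA v2 kit. The authors aligned reads with STAR 2.6.1 to mm10, per the submitters' processing notes, assigned them to Gencode M3 genes with the Partek E/M method, scaled counts by the upper quartile and deposited 1 signal value per group, the least-squares mean, with 3 significant digits. The deposited table has 18 columns and also holds the authors' p-values, FDR, ratios and fold changes of 2 comparisons, which were not used. The Scd2f/f DEN + WAD mean was the same in both comparisons for all 16755 genes. Depth and read length are not given in the sources used here.

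Ratios of group means were computed without a pseudocount, with 2-fold as the limit. No test was run, because values of single mice were not analysed. The members and lists were chosen with earlier results of these data known. Named are the members, the other tubulin genes, Scd2, in each cytoskeletal list the genes with the highest and lowest ratio among those averaging 1 or more, and the 5 genes nearest to the members' median pair. A gene that this rule names is not reported here. Vim, Krt18, Actb, genes beside the clusters and genes named to describe a count serve as reference points, and those outside this rule were chosen after their values were seen. Transcript lengths, exons and shared windows came from GENCODE M21, coding sequences were aligned globally, and promoters came from RefSeq on GRCm38.p6. Of the members, 8 matched a promoter. The steps were tested on simulated data. Python 3.11.15, NumPy 2.4.6, pandas 2.3.3, Biopython 1.88 and Matplotlib 3.10.9 were used.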

Additional observations from a re-analysis of the deposited data

How the results depend on the processing

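The alternatives were pseudocounts of 0.1 and 1, centring on the median ratio, a limit of 1.5-fold, members with a mean of at least 1, and other lengths. With a pseudocount of 1, the number of isotypes at least 2-fold higher in Scd2f/f TAL than in untreated liver went from 3 to 1, Tubb2a, and the number at least 2-fold lower from 1 to 0. The number at least 2-fold lower in Scd2f/f;CC than in Scd2f/f TAL went from 1 to 0 with a pseudocount of 1 and with members of a mean of at least 1, which leaves out Tubb2b, and to 4 at 1.5-fold. The median log2 ratio of that comparison was -0.33 with a pseudocount of 1, in place of -0.46. At 1.5-fold, Scd2f/f;CC TAL had 2 isotypes above and 2 below untreated liver, in place of 0 and 1. None of these settings could reverse a ratio of at least 2-fold. A pseudocount keeps the sign of a log2 ratio, and limits and filters leave it unchanged. Centring shifted it by at most 0.0433. The shares of isotypes moved by 5 percentage points or more in 11 of 30 values without division by length and in 17 of 30 with the median length. Centring takes the same amount from every gene in a comparison, and the second copy of the Scd2f/f TAL means was identical. Neither could therefore move a member ratio by 0.1 in log2. No replicate could be left out, and no paired analysis was possible because the columns used are group means and no value of a single mouse was analysed. Precision is limited by the unknown depth, most of all for Tubb2b.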
